A study of Mus musculus with 20 samples.

Results

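The genes of the major histocompatibility complex (MHC) and of antigen processing were followed in medullary thymic epithelial cells of mice with and without Aire. A gene was included where a probe set carried exactly 1 symbol and this symbol either began with H2- or was Cd74, Ciita, B2m, Tap1, Tap2, Tapbp, Psmb8, Psmb9, Psmb10, Nlrc5, Erap1 or Ctss. Of 18193 genes that had a probe set with 1 symbol, 35 met this rule. Each gene was represented by the probe set with its highest mean log2 value over all 20 arrays, and the choice used no difference between groups. The 35 genes comprised 3 classical class I genes, 7 genes of class I peptide loading, 11 non-classical class I genes, 5 class II chains, 6 class II accessory genes, 2 regulators and H2-Ke6. According to the annotation, 28 of the 35 lie on chromosome 17, where the mouse MHC is.

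Aire is a transcriptional regulator of the thymic medulla, where it is known to turn on genes otherwise used in peripheral organs. Expression was measured with Affymetrix arrays in cells sorted from the thymus of individual male mice aged 3 to 4.5 weeks, with 1 array per mouse. The sort took cells that lacked CD45, carried the epithelial epitope G8.8, were intermediate for Ly51 and were high for MHC class II, so class II protein was itself part of the gate in every group. Mice with intact Aire (wild-type, WT) were set against mice labelled as Aire knockout (KO) in 3 inbred strains, with 3 WT and 3 KO mice of B6, 4 and 4 of BALB, and 3 and 3 of NOD. The labels do not describe the Aire allele. The strains differ at the MHC itself, since B6 carries the haplotype b, BALB the haplotype d and NOD the haplotype g7. A probe set can therefore read a difference of sequence as a difference of level between strains. This applies less to KO against WT within a strain, where both genotypes share the haplotype as far as the labels tell.

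Classical class I molecules (H2-K, H2-D) pair with beta-2-microglobulin and present peptides that the proteasome cuts and that Tap1 and Tap2 carry into the endoplasmic reticulum. Class II molecules (I-A from H2-Aa and H2-Ab1, I-E from H2-Ea and H2-Eb1) are assembled with the invariant chain, Cd74, which is cut by cathepsins in endosomes and leaves a short piece in the groove. H2-DM exchanges this piece for other peptides, and H2-O, made of H2-Oa and H2-Ob, binds H2-DM and inhibits it. Ciita is the master regulator of class II transcription and Nlrc5 that of class I. In the thymic medulla both kinds of molecule display self peptides to developing T cells, and H2-O is known mainly from B cells and the thymic medulla.

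The sequences in front of these genes are shown because the class II genes share an arrangement that carries the machinery recruiting Ciita, and the class I genes share another. Promoters were taken from RefSeq (GRCm38.p6, the B6 reference, so these are B6 sequences), and 24 of the 35 genes had one. The 250 bases before the start were searched on both strands, overlaps allowed. The letters GCAAC (the core of the X box) followed after 10 to 30 bases by GATTGG (the Y box, read by the factor NF-Y) were found in 0.317% of 32851 promoters. Leaving Ctss aside, they were found in 5 of the 7 class II chain and accessory genes that had a promoter. There they had 24 to 27 bases between, and no other of the 24 genes, Ctss included, held the pair. In the stretches below the capitals mark both motifs.

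H2-Aa, chr17:34287855-34287916, minus strand: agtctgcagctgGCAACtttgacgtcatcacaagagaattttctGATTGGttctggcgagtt
H2-Eb1, chr17:34305764-34305824, plus strand: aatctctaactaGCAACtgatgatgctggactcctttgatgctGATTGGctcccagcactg
H2-Eb2, chr17:34325531-34325591, plus strand: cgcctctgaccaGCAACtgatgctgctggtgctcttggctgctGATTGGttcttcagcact
H2-Oa, chr17:34092291-34092352, plus strand: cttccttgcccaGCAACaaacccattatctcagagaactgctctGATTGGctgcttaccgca
H2-Ob, chr17:34238806-34238864, plus strand: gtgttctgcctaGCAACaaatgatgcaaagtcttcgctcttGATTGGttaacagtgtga

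The class I genes shown next carry the letters GGGATTCCC (a site of the NF-kB type), found in 0.301% of promoters, and TTTCACTT (the core of an interferon response element), found in 1.36%. Among the 24 genes GGGATTCCC was found in H2-K1 and H2-D1, and TTTCACTT in these and in H2-M3, H2-Q10 and H2-T3. H2-Q10, a non-classical class I gene, is set beside H2-K1 and H2-D1 because it was the one gene of the 35 that fell in the KO. Its stretch holds TTTCACTT and not GGGATTCCC. A match describes the letters and is neither a shown binding site nor a cause of the values.

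H2-K1, chr17:34000410-34000469, minus strand: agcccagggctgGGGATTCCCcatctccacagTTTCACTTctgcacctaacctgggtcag
H2-D1, chr17:35262912-35262971, plus strand: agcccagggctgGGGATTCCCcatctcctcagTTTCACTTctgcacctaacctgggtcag
H2-Q10, chr17:35469902-35469961, plus strand: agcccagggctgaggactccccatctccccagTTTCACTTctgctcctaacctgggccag

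All values below are log2 of the deposited intensity, and a level is not comparable between genes because probe sets differ. The median of all values on the arrays was 6.48 and the lowest 5% lay below 3.77. Array medians were 86.3 to 90.9 in intensity, so the arrays had nearly equal scales. Mean differences are log2 differences ± SE from limma over all 20 arrays with 6 group means, and p-values were adjusted by Benjamini-Hochberg over 45037 probe sets. A gene is said to rise or fall where the adjusted p was under 0.05. Because each array was 1 mouse, the p-values measure the spread between individual mice. In sorted bulk samples, fewer cells of a type and less RNA per cell cannot be told apart. The B6 arrays WT 2, KO 2 and KO 3 stood apart from the other arrays, with log2 ratios of the Gapdh 3' to 5' control probe sets of 1.90, 1.68 and 1.84 against 2.15 to 3.76 in the rest. B6 KO 2 and KO 3 correlated at r = 0.996 over all probe sets. The Aire probe set read 0.74 ± 0.14 higher in KO than in WT mice (adjusted p = 0.00104). The sources used here do not place it relative to the altered part of the gene, so it is no check of the genotype, and "KO" means labelled KO.

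Averaged over the 3 strains, KO mice had more RNA of both H2-O chains, of the class II chains H2-Eb2, H2-Ab1 and H2-Eb1 and of the non-classical class I genes H2-M3 and H2-M10.1, and less of H2-Q10. The largest rise was 1.77-fold, for H2-Ob, and H2-Q10 fell by 0.82 on the log2 scale. Classical class I, the peptide transporter and the immunoproteasome did not pass the test. In all, 8 of the 35 genes passed (22.9%), 7 higher and 1 lower. Of the 35, 15 had an unadjusted p under 0.05, as did 15347 of the 45037 probe sets. Over all probe sets 20.6% passed, 10.5% higher and 10.1% lower, and 26.3% of genes did with 1 probe set per gene, so the share among the 35 is near the background. Their median difference was 0.10, against 0.06 over all probe sets and 0.01 over genes. With same-numbered mice of a strain as a replicate block, 17 of 35 passed, 15 higher and 2 lower, as did 16664 of all 45037 probe sets, but the numbers did not pair the mice in B6. A plot of all 35 averaged differences shows this order by role.

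**Figure D1:**
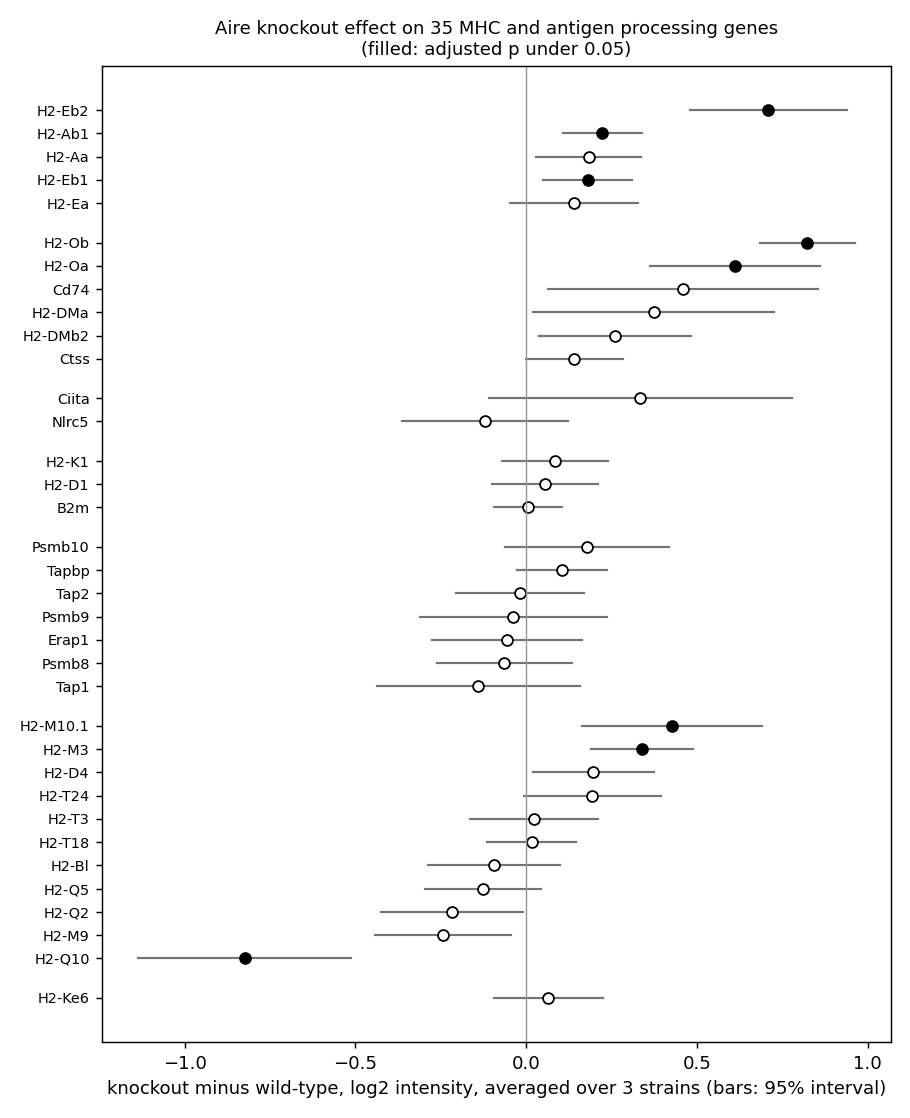
Averaged KO minus WT difference (log2, horizontal axis) of each of the 35 genes, grouped by role, with 95% confidence intervals; filled points had an adjusted p under 0.05. The 8 filled points are H2-Ob, H2-Oa, H2-Eb2, H2-Ab1, H2-Eb1, H2-M3 and H2-M10.1 above 0 and H2-Q10 below 0, while the class I and loading genes lie between -0.14 and 0.18.

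H2-Ob, the beta chain of H2-O, read 10.45, 10.28 and 10.60 in B6 WT mice and 11.67, 11.51 and 11.45 in B6 KO mice. In BALB it read 11.02, 11.09, 11.12 and 10.95 in WT and 11.81, 11.70, 11.95 and 11.77 in KO mice. In NOD it read 11.71, 11.30 and 11.28 in WT and 12.12, 11.98 and 12.01 in KO mice. Every one of the 10 KO mice was higher than each WT mouse of its own strain, so the genotypes did not overlap in any strain. The averaged rise was 0.82 ± 0.07 (95% confidence interval 0.69 to 0.96, adjusted p = 4.41e-08). It was 1.10 ± 0.12 in B6 (2.14-fold, adjusted p = 6.36e-06), 0.76 ± 0.10 in BALB (adjusted p = 8.63e-05) and 0.61 ± 0.12 in NOD (adjusted p = 0.00428).

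H2-Oa, the alpha chain of H2-O, read 10.97, 11.62 and 11.62 in B6 WT and 11.52, 12.02 and 11.94 in B6 KO mice. The BALB values were 10.69, 10.58, 10.52 and 10.07 in WT and 11.52, 11.56, 11.12 and 10.91 in KO mice. The NOD values were 10.68, 10.27 and 10.64 in WT and 10.98, 11.14 and 11.28 in KO mice. The genotypes were separate in BALB and NOD and overlapped in B6 through KO 1, the single KO mouse of the 10 that was not above all WT mice of its strain. The averaged rise was 0.61 ± 0.12 (1.53-fold, adjusted p = 0.00102). By strain, H2-Oa passed in BALB (0.81 ± 0.19, adjusted p = 0.0103), while B6 read 0.42 ± 0.21 (adjusted p = 0.281) and NOD 0.60 ± 0.21 (adjusted p = 0.161, or 0.00297 with same-numbered mice as a replicate block).

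The other class II accessory genes did not pass on average without a block. Cd74, the invariant chain, read 11.95, 13.53 and 12.16 in B6 WT and 12.28, 13.66 and 13.55 in B6 KO mice. Among BALB mice the WT read 11.46, 11.44, 11.56 and 11.03 and the KO 11.86, 11.94, 11.96 and 11.66. Among NOD mice the WT read 12.01, 12.10 and 12.18 and the KO 12.24, 12.48 and 12.40. The genotypes were separate in BALB and NOD, whereas in B6 the 3 arrays that stood apart read near 13.5 in both genotypes and the other 3 near 12. The averaged difference was 0.46 ± 0.19 (adjusted p = 0.0922), with 9 of 10 KO mice higher than each WT mouse of the same strain. Without B6 WT 2 it was 0.62 (adjusted p = 0.00491), and without B6 KO 1 it was 0.61 (adjusted p = 0.0102). H2-DMa and H2-DMb2, chains of the peptide exchanger, read 0.37 ± 0.17 (adjusted p = 0.124) and 0.26 ± 0.11 (adjusted p = 0.0896). Ctss, cathepsin S, which trims the invariant chain in most antigen-presenting cells, read 0.14 ± 0.07 (adjusted p = 0.152). With the replicate block Cd74 (adjusted p = 0.00211), H2-DMa (0.00042) and H2-DMb2 (0.00155) passed, as they did with the code run as a block (0.0172, 0.0226 and 0.0289). Without a block the class II accessory genes had 2 of 6 risen, with a median of 0.42, against 10.5% higher over all probe sets. An unadjusted p under 0.05 was found for 5 of 6, and for 15347 of all 45037 probe sets.

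Of the class II chains, 3 of 5 rose (median 0.18), against 10.5% higher over all probe sets. H2-Eb2, a beta chain gene next to H2-Eb1, read 12.12, 12.31 and 12.07 in B6 WT and 12.78, 13.11 and 13.03 in B6 KO mice. BALB WT mice read 11.17, 11.21, 11.19 and 10.40, and BALB KO mice 11.81, 11.86, 11.91 and 11.45. NOD WT mice read 12.49, 12.05 and 11.90, and NOD KO mice 12.79, 12.78 and 12.54. Each of the 10 KO mice exceeded every WT mouse of its strain. On average H2-Eb2 rose by 0.71 ± 0.11 (adjusted p = 0.000111). The difference was 0.81 ± 0.20 in B6 (adjusted p = 0.0135), 0.76 ± 0.17 in BALB (adjusted p = 0.00884) and 0.56 ± 0.20 in NOD (adjusted p = 0.159, or 0.00474 with the replicate block).

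**Figure D2:**
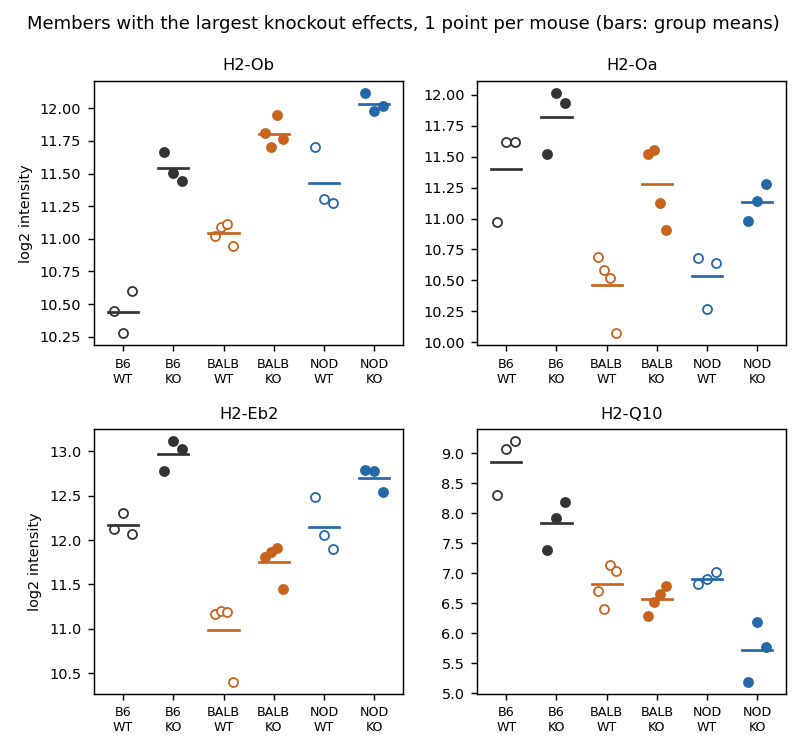
Log2 intensity (vertical axes) of H2-Ob, H2-Oa, H2-Eb2 and H2-Q10 in each mouse by strain; open points are WT, filled points KO and bars group means. For H2-Ob and H2-Eb2 all 10 KO points lie above the WT points of their strain, and for H2-Q10 the KO points lie below them in B6 and NOD and mix with them in BALB.

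H2-Ab1, the I-A beta chain, read 13.57, 13.71 and 13.77 in B6 WT and 13.68, 13.77 and 13.84 in B6 KO mice. In BALB it read 12.97, 12.93, 13.10 and 12.78 in WT and 13.30, 13.35, 13.24 and 13.09 in KO mice. In NOD it read 13.23, 13.12 and 13.15 in WT and 13.52, 13.48 and 13.37 in KO mice. The genotypes overlapped in B6, overlapped by 1 mouse in BALB and were separate in NOD. The averaged rise was 0.22 ± 0.05 (1.17-fold, adjusted p = 0.00706), and both dimmer H2-Ab1 probe sets rose by 0.45 (1.36-fold, adjusted p = 0.0431 and 0.0497). In the brightest probe set, without the 3 B6 arrays that stood apart, the rise was 0.20 (adjusted p = 0.0763). By strain H2-Ab1 passed in BALB (0.30 ± 0.09, adjusted p = 0.0411) and, with the replicate block, in NOD (adjusted p = 0.0496).

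H2-Aa, the I-A alpha chain, read 13.51, 14.02 and 13.71 in B6 WT and 13.62, 14.11 and 14.14 in B6 KO mice. The BALB values were 13.11, 13.18, 13.25 and 13.28 in WT and 13.43, 13.35, 13.40 and 13.33 in KO mice. The NOD values were 13.37, 13.29 and 13.44 in WT and 13.48, 13.60 and 13.52 in KO mice. Narrow gaps separated the genotypes in BALB and NOD, and they overlapped in B6. The averaged difference was 0.18 ± 0.07 and did not pass (adjusted p = 0.0849), but did with the replicate block (adjusted p = 0.0184), without B6 WT 2 (adjusted p = 0.0237) or B6 KO 1 (adjusted p = 0.011). Another probe set of H2-Aa rose by 0.27 ± 0.06 (adjusted p = 0.00234), so the call depends on the probe set.

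H2-Eb1, the I-E beta chain, read 13.23, 13.62 and 13.25 in B6 WT and 13.34, 13.70 and 13.69 in B6 KO mice. Among BALB mice the WT read 13.19, 13.19, 13.20 and 13.07 and the KO 13.34, 13.34, 13.28 and 13.25. Among NOD mice the WT read 13.24, 13.11 and 13.22 and the KO 13.45, 13.33 and 13.36. BALB and NOD showed no overlap of genotypes. The averaged rise of 0.18 ± 0.06 lay at the threshold (adjusted p = 0.0491) and was lost in 26 of 38 alternative fits, among them the one without the 3 B6 arrays that stood apart (0.14, adjusted p = 0.111).

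H2-Ea, the I-E alpha chain, read 9.24, 8.96 and 9.49 in B6 WT and 9.46, 9.21 and 9.18 in B6 KO mice. BALB WT mice read 12.05, 12.05, 11.90 and 11.48, and BALB KO mice 12.46, 12.46, 12.29 and 12.11. NOD WT mice read 9.24, 9.21 and 9.42, and NOD KO mice 9.38, 9.11 and 9.10. B6 and NOD carry a deleted Ea promoter and make no I-E, and the values there were low and overlapped between genotypes, whereas in BALB the 4 KO mice were higher than the 4 WT mice without overlap. The averaged difference was 0.14 ± 0.09 (adjusted p = 0.275). The BALB difference was 0.46 ± 0.14 (adjusted p = 0.0567, or 0.00827 with the replicate block), and the difference between strains in the KO effect did not pass (unadjusted p = 0.0447).

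Ciita was read by 3 probe sets that differed. The brightest, which represents the gene, read 7.99, 6.86 and 8.38 in B6 WT and 8.54, 7.53 and 7.54 in B6 KO mice. In BALB it read 8.48, 8.86, 8.32 and 7.47 in WT and 8.83, 9.29, 8.38 and 8.14 in KO mice. In NOD it read 8.51, 8.48 and 8.42 in WT and 9.04, 8.94 and 8.91 in KO mice. NOD alone had separate genotypes, and the averaged difference of 0.33 ± 0.21 did not pass (adjusted p = 0.275, or 0.0411 with the replicate block).

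The dimmest of the 3 Ciita probe sets gave another picture. It read 8.01, 8.07 and 7.81 in B6 WT and 8.93, 8.94 and 9.06 in B6 KO mice. The BALB values were 7.38, 7.74, 7.42 and 7.01 in WT and 8.67, 8.54, 8.43 and 8.06 in KO mice. The NOD values were 8.07, 7.66 and 7.71 in WT and 8.81, 8.66 and 8.79 in KO mice. Here the 10 KO mice all exceeded the WT mice of their strain. The log2 rise was 1.02 in B6, 1.04 in BALB and 0.94 in NOD, and the average over strains passed (SE 0.09, adjusted p = 3.46e-07). It was singled out after its values were seen. The third probe set, of middle brightness, rose by 0.53 ± 0.16 (adjusted p = 0.0262) and did not pass without the 3 B6 arrays that stood apart (adjusted p = 0.128). Ciita is transcribed from several alternative promoters, and the sources used here do not say which transcripts each probe set reads. Nlrc5, its counterpart for class I, read -0.12 ± 0.12 (adjusted p = 0.474), so 0 of the 2 regulators passed by limma and 0 of 2 had an unadjusted p under 0.05.

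**Figure D3:**
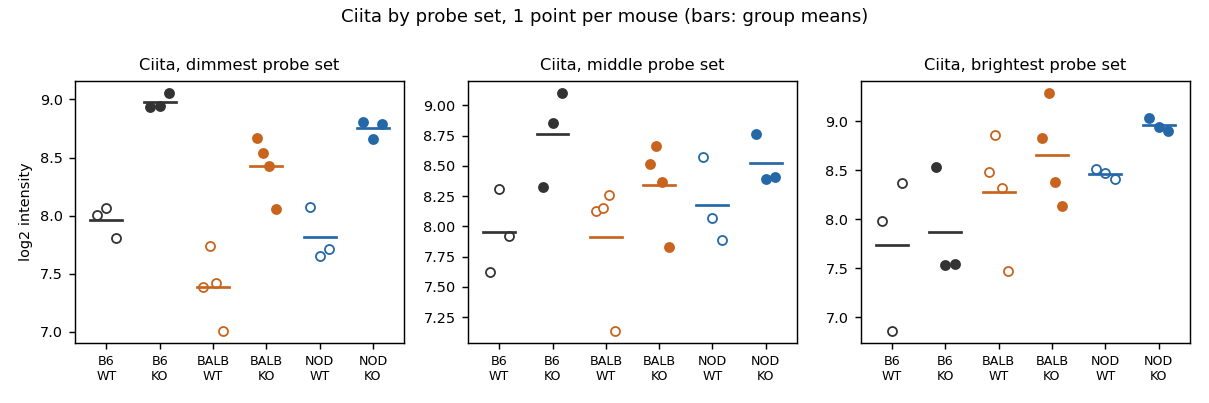
Log2 intensity (vertical axes) of the 3 Ciita probe sets in each mouse by strain; open points are WT, filled points KO and bars group means. The dimmest probe set separates all 10 KO mice from the WT mice of their strain, whereas in the brightest the genotypes overlap in B6 and BALB.

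Classical class I did not pass on average, with a median of 0.06 over its 3 genes. H2-K1 read 13.15, 13.35 and 13.22 in B6 WT and 13.07, 13.37 and 13.39 in B6 KO mice. Among BALB mice the WT read 12.68, 12.71, 13.01 and 13.18 and the KO 13.10, 12.96, 13.26 and 13.27. Among NOD mice the WT read 12.98, 13.06 and 13.04 and the KO 13.07, 13.02 and 12.88. The genotypes overlapped in all 3 strains, and the averaged difference was 0.09 ± 0.07 (95% confidence interval -0.07 to 0.24, adjusted p = 0.431).

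H2-D1 read 13.27, 13.66 and 13.41 in B6 WT and 13.22, 13.70 and 13.55 in B6 KO mice. BALB WT mice read 12.96, 12.99, 13.16 and 13.33, and BALB KO mice 13.21, 13.21, 13.31 and 13.41. NOD WT mice read 13.09, 13.19 and 13.15, and NOD KO mice 13.21, 13.10 and 12.97. Here too the genotypes overlapped in every strain, with an averaged difference of 0.06 ± 0.07 (95% confidence interval -0.10 to 0.21, adjusted p = 0.611).

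B2m, the light chain shared by class I molecules, read 13.98, 14.14 and 13.98 in B6 WT and 14.00, 14.17 and 14.06 in B6 KO mice. In BALB it read 13.75, 13.82, 13.82 and 13.90 in WT and 13.77, 13.71, 13.87 and 13.86 in KO mice. In NOD it read 13.92, 13.92 and 13.87 in WT and 13.92, 13.97 and 13.79 in KO mice. The genotypes overlapped in every strain, and the averaged difference was 0.01 ± 0.05 (95% confidence interval -0.10 to 0.11, adjusted p = 0.947). By limma 0 of the 3 classical class I genes had an unadjusted p under 0.05.

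The 7 genes of class I peptide loading had averaged differences between -0.14 and 0.18, and 0 of 7 passed by limma or had an unadjusted p under 0.05. Tap1 and Tap2, the transporter, read -0.14 ± 0.14 and -0.02 ± 0.09. Tapbp, tapasin, which holds class I at the transporter, read 0.10 ± 0.06 (adjusted p = 0.252). Its other probe set rose by 0.30 ± 0.09 (adjusted p = 0.0201). Psmb8, Psmb9 and Psmb10, the catalytic subunits of the immunoproteasome, read -0.06 ± 0.10, -0.04 ± 0.13 and 0.18 ± 0.11. Erap1, which trims peptides in the endoplasmic reticulum, read -0.06 ± 0.10 (adjusted p = 0.727).

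The 11 non-classical class I genes had 2 risen, 1 fallen and a median of 0.02, against 10.5% higher and 10.1% lower over all probe sets. H2-Q10, known as the gene of a class I molecule secreted by the liver, read 8.30, 9.06 and 9.19 in B6 WT and 7.39, 7.92 and 8.18 in B6 KO mice. The BALB values were 6.70, 6.41, 7.14 and 7.04 in WT and 6.29, 6.52, 6.66 and 6.78 in KO mice. The NOD values were 6.81, 6.90 and 7.02 in WT and 5.19, 6.18 and 5.77 in KO mice. The genotypes were separate in B6 and NOD and overlapped in BALB, so that 7 of 10 KO mice were lower than each WT mouse of the same strain. The averaged fall was -0.82 ± 0.15 (95% confidence interval -1.14 to -0.51, adjusted p = 0.000514). The difference was -1.02 ± 0.27 in B6 (adjusted p = 0.0212), -1.19 ± 0.27 in NOD (adjusted p = 0.0123) and -0.26 ± 0.23 in BALB (adjusted p = 0.616). That the strains differ in this effect did not pass (unadjusted p = 0.0339).

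H2-M10.1, of a family known from vomeronasal sensory neurons, read 7.94, 8.62 and 7.57 in B6 WT and 8.37, 8.68 and 8.86 in B6 KO mice. Among BALB mice the WT read 7.29, 7.40, 7.04 and 7.17 and the KO 7.31, 6.97, 7.19 and 6.80. Among NOD mice the WT read 9.02, 8.45 and 8.32 and the KO 9.62, 9.32 and 9.40. The KO mice were above the WT mice in NOD, overlapped them in B6 and lay partly below them in BALB. The averaged rise was 0.43 ± 0.13 (adjusted p = 0.022). It missed the threshold without B6 WT 3 (adjusted p = 0.0514), B6 KO 3 (adjusted p = 0.0507) or NOD WT 3 (adjusted p = 0.0518).

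H2-M3, which presents formylated peptides, read 10.52, 10.37 and 10.61 in B6 WT and 11.03, 10.63 and 10.70 in B6 KO mice. BALB WT mice read 11.19, 11.19, 11.10 and 10.78, and BALB KO mice 11.64, 11.75, 11.66 and 11.53. NOD WT mice read 11.07, 10.90 and 11.13, and NOD KO mice 11.22, 11.05 and 11.28. The genotypes were separate in B6 and BALB and overlapped in NOD. On average H2-M3 rose by 0.34 ± 0.07 (adjusted p = 0.00195), and of the strains H2-M3 passed in BALB (0.58 ± 0.11, adjusted p = 0.0026).

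The other 8 non-classical genes did not pass on average. H2-M9 read -0.24 ± 0.09 (adjusted p = 0.0776) and H2-Q2 -0.22 ± 0.10 (adjusted p = 0.131). H2-Q5 read -0.13, H2-Bl -0.09, H2-T3 0.02 and H2-T18 0.02. H2-D4 read 0.20 and H2-T24 0.19. The probe sets of H2-D4, H2-T24 and H2-M9 lay below the median of all values. H2-Ke6, which has an H2- symbol but encodes a steroid dehydrogenase, read 0.06 ± 0.08 (adjusted p = 0.569).

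Within strains, 3 of the 35 genes passed in B6 (H2-Ob, H2-Eb2, H2-Q10), against 8.62% of all probe sets. In BALB 5 passed, all higher (H2-Ob, H2-Oa, H2-Eb2, H2-M3, H2-Ab1), against 6.84%. In NOD 3 passed (H2-Ob and H2-M10.1 higher, H2-Q10 lower), against 4.23%. In each strain 7 of the 35 genes had an unadjusted p under 0.05. Of all 45037 probe sets 9343 did in B6, 8554 in BALB and 6016 in NOD. The share of the 35 that passed was thus 8.57% in B6, near that over all probe sets. It was 14.3% in BALB and 8.57% in NOD, above it, on few genes. The share with an unadjusted p under 0.05 was near that over all probe sets in B6 and BALB. Same-numbered mice varied together in BALB and NOD. With the number as a replicate block 9 genes rose in BALB and 6 rose and 1 fell in NOD. The shares of all probe sets that passed within a strain with this block are not given here. For the averaged effect it raised the count over all probe sets from 9277 to 16664. The block added Cd74 (adjusted p = 0.0419), H2-DMa (0.00923), H2-DMb2 (0.0305) and H2-Ea (0.00827) in BALB and H2-Oa, H2-Eb2, H2-Ab1 and H2-DMa (0.0479) in NOD. Leaving out the 3 B6 arrays that stood apart leaves 1 KO mouse and 2 WT mice in B6, with the lone KO mouse assumed to vary like the other groups. H2-Ob then passed there (1.14 ± 0.18, adjusted p = 0.00178), while H2-Q10 read -1.36 ± 0.39 (adjusted p = 0.0845) and H2-Eb2 0.68 ± 0.31 (adjusted p = 0.368). The test of a strain difference in the KO effect passed for 0 of 35 genes by limma, against 0.435% of all probe sets. For 6 of the 35 genes its unadjusted p was under 0.05, with H2-M10.1 (0.00882) and H2-Ob (0.0264) the smallest. The same held for 2308 of all 45037 probe sets.

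The codes of the samples form 4 runs, with B6 WT 1 in none of them. The runs gave 5 sets of KO and WT mice of 1 strain in 1 run, and 1 NOD set held only 1 mouse of each genotype. H2-Ob, H2-Oa, H2-Eb2, H2-Ab1, H2-Eb1, H2-M3, H2-Aa, Cd74, H2-DMa, H2-DMb2, H2-D4, Psmb10 and Tapbp were higher in KO in all 5 sets. H2-Q10 was lower in all 5, by 0.15 to 1.62 on the log2 scale. H2-M10.1 was higher in 3 of 5. How many of all probe sets kept 1 direction in all 5 sets is not given here.

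Of 7 measured B cell markers, 2 rose, Cr2 by 1.44 ± 0.16 (adjusted p = 2.17e-06) and Blk by 0.25 ± 0.08 (adjusted p = 0.0253), 0 fell, and 5 did not pass (median 0.08, against 0.06 over all probe sets). Of the 7, Cd79a, Pax5 and Ebf1 had means of 5.20, 6.13 and 6.47, below the median of all values, and Cd79b, Ms4a1, Blk and Cr2 had means of 7.78, 8.31, 8.70 and 9.61, above it. The summed intensity of the 7 markers was 1419 to 1856 in B6 WT and 1848 to 2712 in B6 KO mice, 1157 to 2380 and 1988 to 3180 in BALB, and 1885 to 2070 and 2603 to 2980 in NOD, so the genotypes overlapped in B6 and BALB and not in NOD. With the mean of these markers as a covariate, 6 of the 8 genes passed: H2-Ob (0.84, adjusted p = 2.1e-07), H2-Eb2 (0.59), H2-Oa (0.43, adjusted p = 0.00163), H2-M3 (0.29), H2-Ab1 (0.18) and H2-Q10 (-0.77). H2-M10.1 (0.36, adjusted p = 0.0604) and H2-Eb1 (0.13, adjusted p = 0.14) did not. Values of H2-DMa, Cd74 and H2-DMb2 follow in the order B6, BALB and NOD. H2-DMa read 0.06, 0.04 and 0.13 with this covariate, against 0.31, 0.42 and 0.38 without it. Cd74 read 0.47, 0.26 and 0.13 against 0.62, 0.48 and 0.28. H2-DMb2 read 0.25, 0.35 and 0.34 against 0.20, 0.28 and 0.30.

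Dendritic cell and macrophage markers had 3 risen (Batf3, Fcer1g, Zbtb46) and 1 fallen (Adgre1) of 13. Their summed intensity overlapped between genotypes in every strain, with 6218 to 9288 in B6 WT and 4914 to 8979 in B6 KO mice, 5030 to 7927 and 4521 to 10175 in BALB, and 5072 to 18340 and 5196 to 13080 in NOD. With their mean as a covariate H2-Ob, H2-Oa, H2-Eb2, H2-Ab1, H2-M3, H2-M10.1 and H2-Q10 passed, H2-DMb2 was added (0.21, adjusted p = 0.0258) and H2-Eb1 was lost (adjusted p = 0.0606). Beyond these fits the part of other cell types in the results was not tested. Of the 12 measured markers of medullary thymic epithelium, 4 were higher and 2 lower in KO mice. Among these 12, Epcam, Krt8 and Fezf2 had means of 11.81, 12.58 and 11.56, far above the median of all values. Of 8 fibroblast markers 3 rose and 5 fell (median -0.65), against 10.5% higher and 10.1% lower over all probe sets. Of 10 thymocyte markers 0 rose and 2 fell, and of 9 cortical epithelium markers 2 rose and 2 fell. Of 8 endothelium markers 1 rose and 1 fell.

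Other genes of the same pathways gave context. Of 13 further class I assembly and proteasome genes, 0 passed by limma and 2 had an unadjusted p under 0.05 (median -0.02). Of 13 further genes of class II processing, Ctsh, a cathepsin, rose by 0.40 ± 0.06 (adjusted p = 8.17e-05). Ctsl, the cathepsin known for cutting the invariant chain in cortical thymic epithelium, fell, with -0.78 ± 0.20 (adjusted p = 0.00911). Of 21 genes of MHC transcription and interferon signalling, 5 rose and 3 fell, against 10.5% higher and 10.1% lower over all probe sets. Irf8, an interferon regulatory factor of haematopoietic cells, rose by 0.92 ± 0.18 (adjusted p = 0.00122). Relb, a subunit of NF-kB that medullary epithelium needs, rose by 0.63 ± 0.21 (adjusted p = 0.044), and Irf2 by 0.53 ± 0.14 (adjusted p = 0.0141). Irf7, an interferon-induced factor, fell, with -0.80 ± 0.12 (adjusted p = 0.000102).

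Of 15 interferon-induced genes, 9 fell and 0 rose (median -0.76), against 10.1% lower and 10.5% higher over all probe sets. Rsad2 changed by -2.13 ± 0.15 (adjusted p = 1.2e-08), Ifit3 by -2.13 ± 0.22 (adjusted p = 1.17e-06), Ifit2 by -1.90 ± 0.18 (adjusted p = 4.2e-07) and Gbp3 by -1.61 ± 0.16 (adjusted p = 7.89e-07). These 4 genes, known from antiviral responses, thus fell by more than any of the 35 MHC and processing genes moved.

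Between strains the 35 genes differed widely. Averaged over genotypes, 27 of 35 (77.1%) passed the F test among the 3 strains, against 33.3% of all probe sets and 38.5% of genes with 1 probe set per gene. B6 had the highest mean in 17 of the 27, NOD in 8 and BALB in 2, while the lowest was BALB in 13, NOD in 8 and B6 in 6. Against B6, BALB was higher in 4 genes and lower in 17 (22.6% of all probe sets passed), and NOD was higher in 8 and lower in 11 (19.7%). NOD was higher than BALB in 9 and lower in 3 (17.3%). These percentages hold both directions together. Neither the split by direction nor the order of strain means over all probe sets is given here. Differences of sequence between the haplotypes can enter all of these counts. A plot of both differences from B6 shows the size of each.

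**Figure D4:**
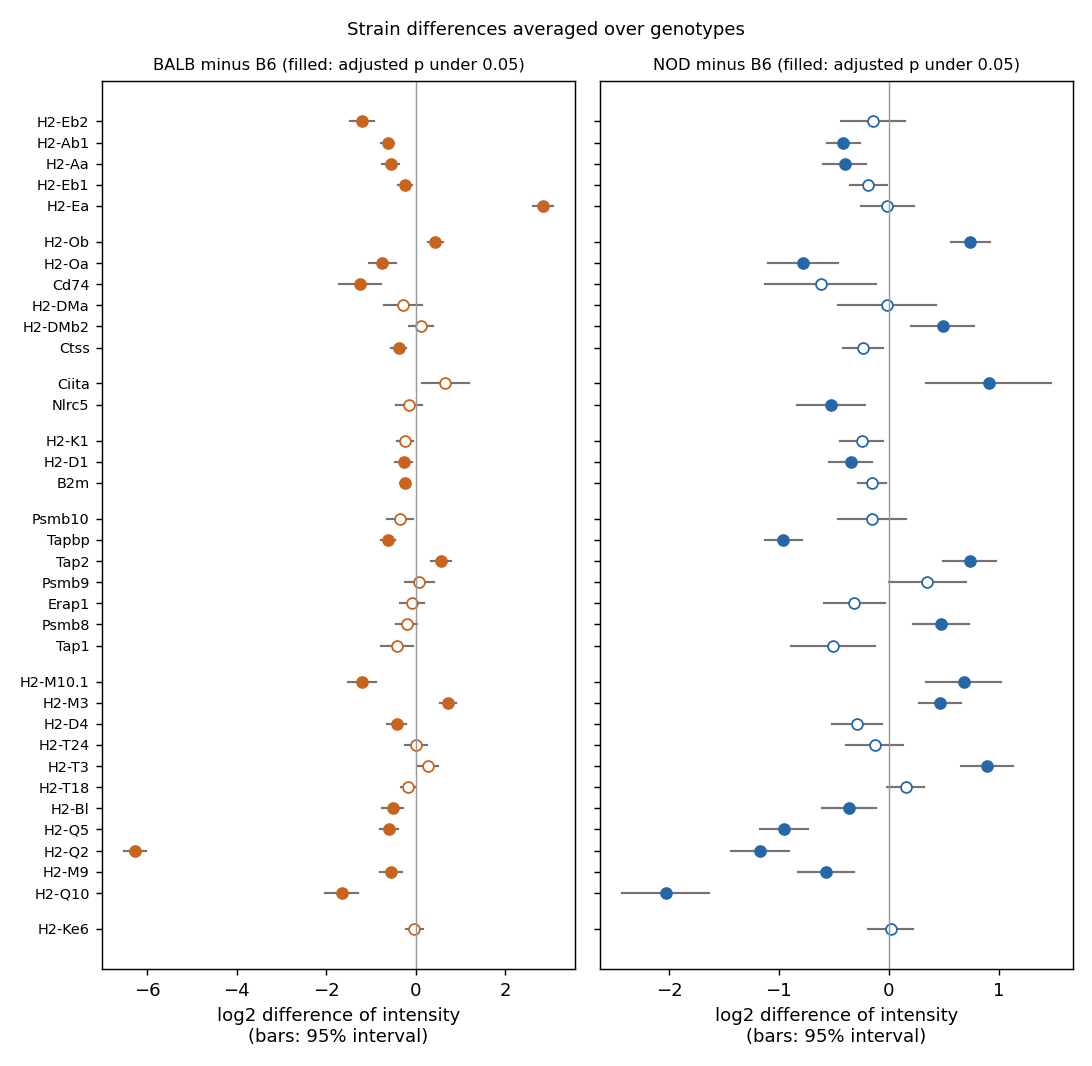
Strain difference averaged over genotypes (log2, horizontal axis) of each of the 35 genes, BALB minus B6 and NOD minus B6, with 95% confidence intervals. For BALB, H2-Q2 lies at -6.27, a size that is not exact since its BALB values are at the bottom of the scale, and H2-Ea at 2.84, while for NOD the farthest points are H2-Q10 at -2.03 and H2-Q2 at -1.17.

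Strain and code run were partly the same. Run 1 held BALB mice only, run 3 B6 only and run 4 NOD only, and run 2 alone mixed strains. B6 WT 1 belonged to no run and was left out of every fit with the run as a block. Run 2 held 1 B6 mouse, KO 1, so in those fits each strain difference from B6 rests on that array. With the run as a block 13 of the 35 genes passed the F test: H2-Ab1, H2-DMb2, H2-Ea, H2-Eb2, H2-M10.1, H2-Ob, H2-Q10, H2-Q2, H2-Q5, Nlrc5, Psmb8, Tap2 and Tapbp. In that fit 5 genes passed between BALB and B6 (H2-Ab1, H2-Ea, H2-Eb2, H2-Q10, H2-Q2) and 8 between NOD and B6 (H2-DMb2, H2-Ob, H2-Q10, H2-Q2, H2-Q5, Psmb8, Tap2, Tapbp), so the other differences from B6 given below did not pass with the run as a block. Between NOD and BALB the fit added H2-DMa, H2-Q10, Nlrc5, Psmb10 and Tap2 and lost H2-Ab1, H2-T18 and H2-T3. That difference rests on the mice of run 2. Shares over all probe sets are not given for this fit or for the next one. Without the 3 B6 arrays that stood apart 18 genes passed the F test, 13 passed between BALB and B6 and 11 between NOD and B6.

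H2-Q2, a Qa-type class I gene, had the widest range. It read 9.85, 9.55 and 10.23 in B6 WT and 9.75, 9.33 and 9.56 in B6 KO mice. In BALB it read 3.43, 3.21, 3.45 and 3.41 in WT and 3.38, 3.93, 3.35 and 3.37 in KO mice. In NOD it read 8.48, 8.86 and 8.94 in WT and 8.34, 8.26 and 8.36 in KO mice. Of the 8 BALB values 7 lay in the lowest 5% of all values on the arrays, and no BALB mouse came near the other strains. BALB was lower than B6 (fitted difference -6.27 ± 0.12, adjusted p = 1.11e-16). Because BALB lies at the bottom of the scale this size is not exact, and it ranged from -6.58 to -4.34 over 38 alternative fits. NOD was lower than B6, with -1.17 ± 0.13 (adjusted p = 3.39e-06). Whether the BALB haplotype lacks the gene or the probes miss its sequence was not tested.

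H2-Ea ran the other way. Its strain means were 9.26 in B6, 12.10 in BALB and 9.24 in NOD, so B6 and NOD did not differ beyond their spread (-0.01 ± 0.11, adjusted p = 0.958) and BALB was higher than B6 by 2.84 ± 0.11 (adjusted p = 2.22e-12). Another H2-Ea probe set, the one with the widest strain difference, read 5.03, 13.75 and 5.85 in these strains. Cross-reacting probes can leave a level in strains with the Ea deletion, which was not tested.

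H2-D1 showed how far a probe set can decide a strain difference. The probe set that represents the gene had strain means of 13.47, 13.20 and 13.12 in B6, BALB and NOD. Of its 9 probe sets, 3 were bright in BALB alone, with strain means in the same order of 6.74, 13.39 and 6.45, of 7.81, 13.14 and 7.55, and of 6.19, 12.31 and 6.27.

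**Figure D5:**
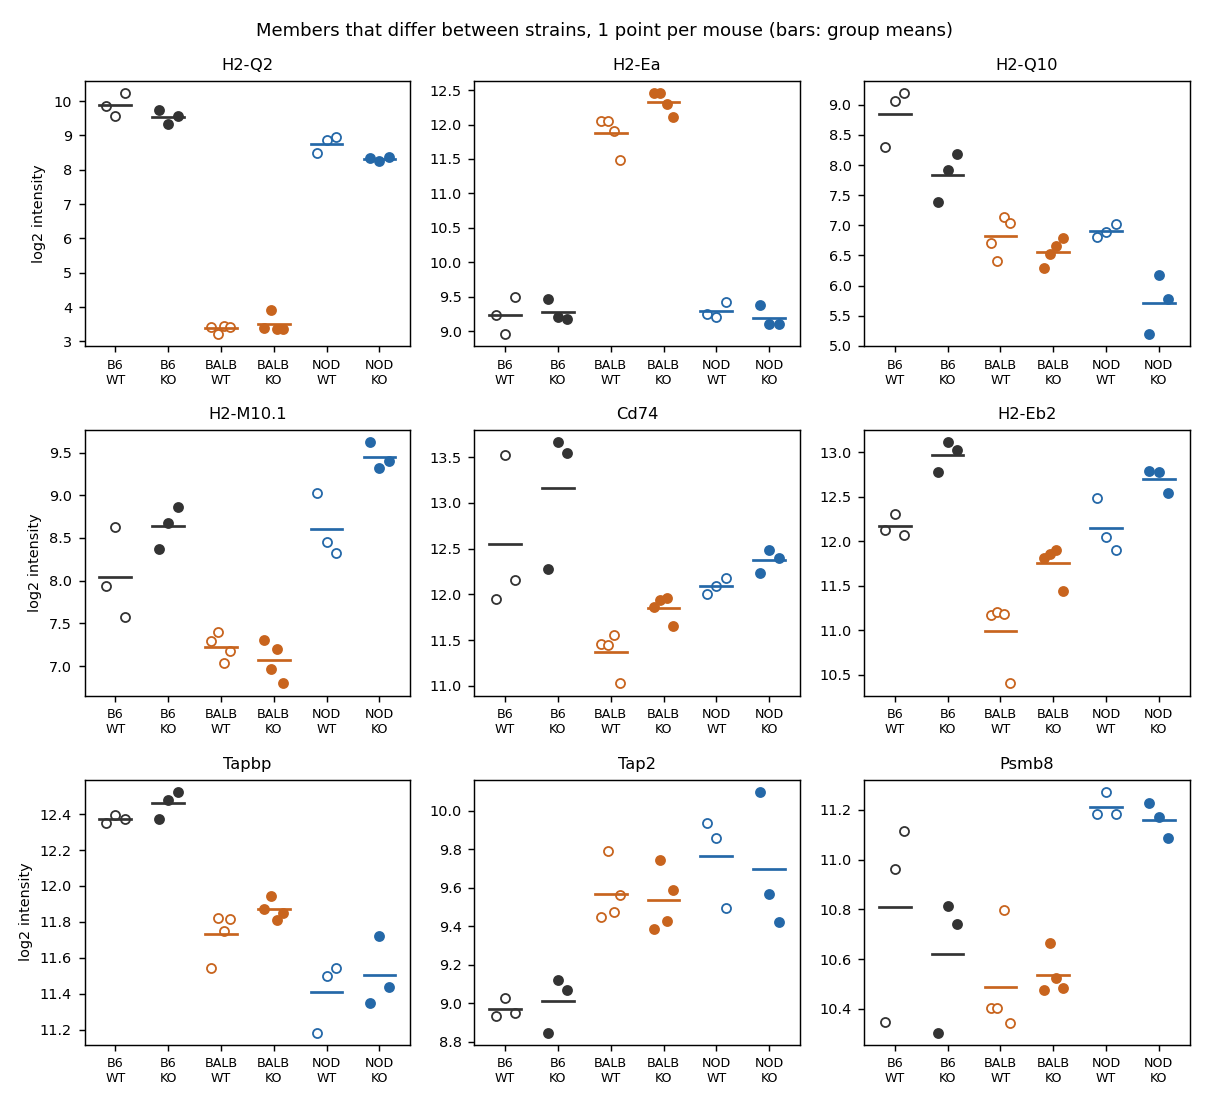
Log2 intensity (vertical axes) in each mouse by strain of 9 genes that differed between strains; open points are WT, filled points KO and bars group means. H2-Q2 is near 3.4 in BALB against 8.3 to 10.2 elsewhere, and H2-Ea is above 11.4 in BALB against below 9.5 in B6 and NOD.

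H2-Q10 and H2-M10.1 also ranked among the widest. H2-Q10 had strain means of 8.34 in B6, 6.69 in BALB and 6.31 in NOD. Without a block BALB and NOD did not differ from each other beyond their spread (-0.38 ± 0.18, adjusted p = 0.157). With the run as a block NOD was below BALB (-0.90, adjusted p = 0.00156). The values of the 6 B6 mice all lay above those of the 14 other mice. H2-M10.1 had means of 8.34, 7.15 and 9.02, with all 3 pairs past the test and the largest gap between NOD and BALB (1.88 ± 0.15, adjusted p = 1.08e-07).

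Of the 5 class II chains, 4 had their lowest mean in BALB. H2-Eb2 had means of 12.57 in B6, 11.37 in BALB and 12.43 in NOD. BALB was below both others (-1.20 ± 0.13 against B6, adjusted p = 4.48e-06), and B6 and NOD did not differ beyond their spread (-0.14 ± 0.14, adjusted p = 0.52). H2-Ab1 had means of 13.72, 13.09 and 13.31, and all 3 pairs passed. H2-Aa had means of 13.85, 13.29 and 13.45, and BALB minus B6 went from -0.56 to -0.32 (adjusted p = 0.0235) without the 3 B6 arrays that stood apart and to -0.18 (adjusted p = 0.787) with the run as a block. H2-Eb1 had means of 13.47, 13.23 and 13.29, and the same difference went from -0.24 to -0.06 (adjusted p = 0.738) and -0.01 (adjusted p = 0.994). The probe set of H2-Ob was lowest in B6 (10.99, 11.42 and 11.73), and all 3 pairs passed. BALB against B6 did not without the 3 B6 arrays that stood apart (0.33, adjusted p = 0.0754) or with the run as a block (0.29, adjusted p = 0.557). A probe set annotated to H2-Ob together with another gene, and used here for neither, ran the other way, with 8.97, 7.15 and 7.98. H2-Oa had means of 11.61, 10.87 and 10.83, and its differences from B6 did not pass without the 3 B6 arrays (-0.54 for BALB, adjusted p = 0.106, and -0.58 for NOD, adjusted p = 0.092) or with the run as a block.

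Cd74 had means of 12.85 in B6, 11.61 in BALB and 12.23 in NOD. BALB was below B6 by 2.36-fold (-1.24 ± 0.22, adjusted p = 0.000808). Without the 3 B6 arrays that stood apart the difference was -0.55 (adjusted p = 0.00967), and with the run as a block -0.35 (adjusted p = 0.861). The size of this difference thus moved with those arrays. The brightest probe set of Ciita had means of 7.81, 8.47 and 8.71, and NOD was above B6 by 0.91 ± 0.27 (adjusted p = 0.0241). This call was lost without the 3 B6 arrays (0.36, adjusted p = 0.583) and with the run as a block (0.19, adjusted p = 0.966). The other Ciita probe sets had other orders, with 8.47, 7.91 and 8.28 for the dimmest and 8.35, 8.13 and 8.35 for the middle one.

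Class I loading genes differed in both directions. Tapbp read 12.35, 12.39 and 12.37 in B6 WT and 12.37, 12.48 and 12.52 in B6 KO mice. The BALB values were 11.55, 11.82, 11.75 and 11.81 in WT and 11.87, 11.94, 11.81 and 11.85 in KO mice. The NOD values were 11.18, 11.50 and 11.55 in WT and 11.35, 11.72 and 11.44 in KO mice. No B6 mouse overlapped the other strains, and NOD was below B6 by 1.95-fold (-0.96 ± 0.08, adjusted p = 1.62e-07). The other, dimmer Tapbp probe set did not pass the F test (6.26, 6.09 and 6.03, adjusted p = 0.232). The strain difference of Tapbp thus rests on the brighter probe set.

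Tap2 was lowest in B6, with 8.94, 9.03 and 8.95 in WT and 8.85, 9.12 and 9.07 in KO mice. BALB read 9.45, 9.79, 9.47 and 9.56 in WT and 9.39, 9.75, 9.43 and 9.59 in KO mice, and NOD 9.94, 9.86 and 9.49 in WT and 10.10, 9.57 and 9.42 in KO mice. Every B6 mouse lay below every other mouse, and BALB and NOD overlapped (0.18 ± 0.11, adjusted p = 0.285). With the run as a block NOD was above BALB for Tap2 (0.50, adjusted p = 0.0286). Psmb8 was highest in NOD, with means of 10.71, 10.51 and 11.19 in B6, BALB and NOD. NOD was above BALB by 0.67 ± 0.11 (adjusted p = 0.000383). Tap1, Psmb9, Psmb10 and Erap1 did not pass the F test.

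Of the remaining non-classical genes, H2-Q5 (10.16, 9.56 and 9.21), H2-M9 (6.23, 5.68 and 5.66), H2-Bl (8.03, 7.52 and 7.67) and H2-D4 (5.69, 5.27 and 5.40) had their highest mean in B6. For H2-D4, NOD minus B6 did not pass (-0.29, adjusted p = 0.0662). A dimmer H2-Q5 probe set, below the median of all values, was lowest in B6, with 5.27, 5.73 and 5.82 (F test, adjusted p = 0.0472). The strain order of H2-Q5 thus depends on the probe set. H2-T3, the thymus leukaemia antigen gene, was highest in NOD (7.43, 7.70 and 8.33). H2-T18 had its highest mean there (7.28, 7.10 and 7.43), but NOD minus B6 did not pass (0.15, adjusted p = 0.196). H2-M3 had its highest mean in BALB (10.64, 11.36 and 11.11), but NOD minus BALB did not pass (-0.25, adjusted p = 0.0518). H2-T24 and H2-Ke6 did not pass. B2m had means of 14.05, 13.81 and 13.90. The brightest probe set of H2-K1 did not pass the F test (13.26, 13.02 and 13.01), but its 3 other probe sets did, all highest in B6. These read 13.73, 12.89 and 12.69 (adjusted p = 1.83e-07), 12.63, 11.30 and 11.02 (adjusted p = 2.47e-05), and 11.12, 10.13 and 9.62 (adjusted p = 8.44e-06). Ctss had its highest mean in B6 (13.32, 12.94 and 13.08), H2-DMb2 in NOD (11.77, 11.88 and 12.26). The lowest mean of Nlrc5 was in NOD (9.01, 8.85 and 8.48). NOD minus B6 did not pass for Ctss (-0.23, adjusted p = 0.0667), nor NOD minus BALB for Nlrc5 (-0.37, adjusted p = 0.0754). Another H2-DMb2 probe set had the same order (11.70, 11.80 and 12.19). The dimmest one was highest in B6 (9.01, 8.16 and 8.56) and did not pass the F test. Both probe sets shared with H2-DMb1 were highest in B6 and passed. The probe set that represents H2-DMa did not pass (9.60, 9.31 and 9.59), but its dimmer one did (7.79, 7.49 and 7.78, adjusted p = 0.0157).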

How the data were processed

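Total RNA was isolated with Trizol, amplified in 2 rounds and labelled with biotin, per the labels' protocols. The deposited values are linear intensity values per probe set, made by the authors with RMA per the submitters' processing notes. The sources used here give neither its version nor which arrays were normalized together. Amplification can favour 3' ends, and RMA usually equalizes array-wide shifts. No detection calls were used.

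Of the probe sets, 64 controls were left out and 45037 were tested. The annotation gave 1 symbol for 34945, several for 932, and 9160 are unnamed here. The 35 genes had 67 probe sets with 1 symbol. Another 15 probe sets with several symbols, at least 1 of them beginning with H2-, were not used for any gene. H2-L was not analysed here. Groups came from the sample titles. Log2 values were fitted with limma 3.58.1 in R 4.3.3 (lmFit on 6 group means, eBayes, 14 residual degrees of freedom), adjusted by Benjamini-Hochberg over all probe sets at 0.05, and the code was tested on simulated data. Figures used matplotlib 3.10.9 in Python 3.11.15.

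The members and lists were chosen with earlier results of these data known. Genes with values per mouse were set by rule: classical class I, class II chains, Cd74, Ciita, the 5 largest KO effects and the 6 widest strain ranges. H2-M3, Tapbp, Tap2 and other probe sets were added after their values were seen. Same-numbered mice were compared by the correlation of their deviations from group means. In BALB (r = 0.46 to 0.66) and NOD (0.31 to 0.67) every pair exceeded 0.1 and the numbers were taken as pairs. In B6 (lowest r = -0.13) they were not. The labels do not say what the numbers and code runs mark. Alternatives were another scaling, an offset before log2, brighter probe sets only, other variance models and weights, replicate and run blocks, marker and Gapdh covariates, another probe set choice, a fold limit, other arrays in the fit and leaving out each mouse. Fits of single further probe sets of Ciita and H2-Aa were added after seeing the data. The number of arrays limits the precision.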

Additional observations from a re-analysis of the deposited data

Results flagged for a closer look

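In groups of 4 mice (BALB), 70 combinations of gene and genotype were examined for 1 mouse far from the 3 others, and 6 were found. Chance gives about 1 in 20. BALB WT 4 was far below the others for H2-Eb2 (10.40 against 11.17 to 11.21), for H2-Eb1 (13.07 against 13.19 to 13.20) and for Psmb9 (10.33 against 10.83 to 10.84). BALB WT 3 was far above the others for Psmb8 (10.80 against 10.34 to 10.40). For H2-Q2, near the bottom of the scale in BALB, WT 2 was low (3.21 against 3.41 to 3.45) and KO 2 was high (3.93 against 3.35 to 3.38). Without BALB KO 2 the averaged KO effect on H2-Q2 was -0.26 (adjusted p = 0.042 by limma).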

How the results depend on the processing

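H2-Ob (0.80 to 0.87), H2-Eb2 (0.59 to 0.77), H2-Oa (0.43 to 0.66) and H2-Q10 (-0.94 to -0.65) kept direction and call in all 38 alternatives run for the averaged KO effect, and so did the strain differences of H2-Q2, H2-Ea, H2-Q10, H2-M10.1 and H2-Eb2 that were followed. H2-M3 was lost with the fold limit of 1.5, H2-Ab1 with it and without 3 B6 arrays, and H2-M10.1 with it, with the B cell covariate and without 3 single mice.

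Of the 35 genes, the count that passed for the averaged effect went from 8 to 16 with array weights, 4 with the fold limit, 17 with the replicate block as fixed or random term, 13 with the code run as a block and 13 with the mean of a gene's probe sets. In B6 it went from 3 to 12 with array weights, 7 with the fixed and 8 with the random replicate block, and 1 without the 3 B6 arrays. In BALB it went from 5 to 3 with the fold limit or with only the groups compared, and to 9 with the replicate block. In NOD it went from 3 to 8 with array weights, 7 with the fixed and 6 with the random replicate block. The strain difference of the effect went from 0 to 1 with array weights and with either replicate block, where H2-Q10 passed (adjusted p = 0.0318, fixed block). The fixed replicate block added Cd74, Ciita, H2-Aa, H2-D4, H2-DMa, H2-DMb2, H2-M9, H2-T24 and Psmb10 to the averaged effect and Cd74, H2-Bl, H2-M10.1 and H2-Oa in B6. With the additions given for BALB and NOD and H2-Q10 above, it changed no other call. Apart from the averaged effect with this block, shares over all probe sets under the alternatives are not given here. The changed counts are therefore not a result about the 35 genes alone.

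Among the strain differences, the F test went from 27 to 13 with the code run as a block. BALB against B6 went from 21 to 11 with the fold limit, 5 with the code run and 13 without the 3 B6 arrays. NOD against B6 went from 19 to 10, 8 and 11 under the same settings, and NOD against BALB from 12 to 6 with the fold limit. Leaving out each mouse gave 6 to 10 for the averaged effect, 1 to 5 in B6 (5 without WT 2, 1 without WT 3 or KO 2), 4 to 6 in BALB, 1 to 4 in NOD (1 without WT 3 or KO 1), 0 for the strain difference of the effect, 23 to 29 for the F test, 19 to 26, 15 to 25 and 10 to 13 for the pairs. Single mice also decided H2-D4 (adjusted p = 0.0385 without BALB WT 2), H2-DMb2 (0.016 without NOD WT 1) and H2-M9 (0.0141 without B6 WT 1).

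Only averaged effects that did not pass changed sign. B2m read -0.0323 with quantile normalization, -0.0018 with the mean of its probe sets, -0.000385 without the 3 B6 arrays and -0.000589 with B6 KO 2 and KO 3 as 1 sample. H2-T18 read -0.00505 with the code run, -0.0508 with the B cell and -0.0125 with the Gapdh covariate. Tap2 read 0.00247 with the code run, H2-Bl 0.00618 with the B cell covariate, and H2-Q5 0.00814 and Tap1 0.0175 with the mean of their probe sets. Without 1 mouse in turn B2m ranged from -0.00982 to 0.0237, Erap1 from -0.0991 to 0.00821, H2-T18 from -0.0116 to 0.0459, H2-T3 from -0.032 to 0.064, Psmb9 from -0.124 to 0.0388 and Tap2 from -0.0863 to 0.0262. The cause of these changes was not tested.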

Other observations

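Other probe sets of the same genes were counted. The 35 genes had 32 further probe sets with 1 symbol. Of the 30 that belonged to genes whose representing probe set did not pass for the averaged KO effect, 5 passed, all higher: 2 of Ciita and 1 each of H2-Aa, H2-DMa and Tapbp. Over all probe sets 20.6% passed. The further probe set of H2-DMa rose by 0.30 ± 0.07 (adjusted p = 0.00572 by limma). The dimmest Ciita probe set kept its rise without each of the 20 mice in turn, with the replicate block (adjusted p = 3.9e-08), with the code run as a block (3.41e-07), without 3 B6 arrays (3.32e-05) and with the B cell covariate (0.88, adjusted p = 5.96e-07). These fits were added after seeing the data. Of the 15 probe sets with several symbols that include an H2- gene, 3 were higher and 1 lower in KO mice, and 13 passed the F test among strains. The shares over all probe sets were 10.5% higher, 10.1% lower and 33.3% past this F test.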
